A study of Mus musculus with 6 samples.

Results

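The imprinted growth-regulating genes examined here were Plagl1, Peg3, Mest, Grb10, Meg3, Igf2r, Slc38a4 and Gnas. Their members on the array were all probe sets that the platform annotation pairs with 1 gene symbol, that of 1 of these 8 genes. There were 32 such probe sets among 45101 on the array. Meg3 had 11, Peg3 and Gnas had 5 each, Plagl1 and Grb10 had 3 each, Igf2r and Slc38a4 had 2 each, and Mest had 1. Probe sets of 1 gene read the same RNA sample and are not replicates of each other.

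Gene expression was measured in whole liver of male mice aged 3 weeks, with 1 array per mouse. The design text treats the mice as separate animals, and the labels used here name no batch. The 3 mutant mice were Srf loxP/loxP AlfpCre, with both copies of the Srf gene flanked by loxP sites and a Cre recombinase transgene. The 3 control mice were Srf loxP/+ AlfpCre, so they carried the same transgene and 1 loxP-flanked copy. AlfpCre places Cre under albumin and alpha-fetoprotein control elements, which act in the hepatocyte lineage. Which other cells of the liver keep Srf was not examined here. SRF is a transcription factor that binds the CArG box in actin cytoskeleton and immediate early genes. In bulk liver RNA, fewer cells of a type and less RNA per cell cannot be told apart.

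An imprinted gene is transcribed mainly from the copy inherited from 1 parent. In mice, paternally expressed genes such as Plagl1, Peg3 and Mest tend to favour growth of the embryo and newborn, and maternally expressed genes such as Grb10 and Igf2r tend to restrain it. Many of them are abundant in fetal tissues and decline after birth, and the zinc finger protein Plagl1 (also called Zac1) regulates several others as a network.

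RefSeq (build GRCm38.p6) lists 17 promoter windows for the 8 genes, each from 250 bases before to 50 bases after a gene start. They were searched on both strands for 3 motifs, the CArG box bound by SRF, GGGGCCCC bound by Plagl1, and the cAMP response element TGACGTCA. The windows printed are those of the genes whose kept probe sets all had mutant and control arrays apart (Peg3, Slc38a4 and Mest, at the most upstream start listed), and those of Meg3, where motifs were found. Capitals mark motif matches, and windows without capitals hold none of the 3.
Peg3, chr7:6730370-6730669, minus strand: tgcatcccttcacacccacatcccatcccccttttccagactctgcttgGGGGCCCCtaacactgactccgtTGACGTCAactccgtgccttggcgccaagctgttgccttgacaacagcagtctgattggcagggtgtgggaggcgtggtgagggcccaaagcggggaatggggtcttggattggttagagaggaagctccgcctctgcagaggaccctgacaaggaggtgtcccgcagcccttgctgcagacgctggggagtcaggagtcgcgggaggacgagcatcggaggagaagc
Slc38a4, chr15:97055907-97056206, minus strand: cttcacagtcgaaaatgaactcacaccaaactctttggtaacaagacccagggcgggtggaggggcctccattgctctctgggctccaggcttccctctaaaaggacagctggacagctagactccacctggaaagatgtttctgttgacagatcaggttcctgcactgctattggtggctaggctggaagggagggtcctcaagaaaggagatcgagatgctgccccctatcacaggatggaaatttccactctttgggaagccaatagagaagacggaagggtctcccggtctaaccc
Mest, chr6:30733256-30733555, plus strand: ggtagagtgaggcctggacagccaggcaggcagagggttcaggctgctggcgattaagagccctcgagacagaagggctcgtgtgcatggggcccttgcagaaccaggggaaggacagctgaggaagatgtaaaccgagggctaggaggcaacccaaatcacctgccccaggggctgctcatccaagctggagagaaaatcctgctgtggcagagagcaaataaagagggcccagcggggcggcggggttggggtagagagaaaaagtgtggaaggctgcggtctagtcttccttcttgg
Meg3 at its upstream start, chr12:109540746-109541045, plus strand: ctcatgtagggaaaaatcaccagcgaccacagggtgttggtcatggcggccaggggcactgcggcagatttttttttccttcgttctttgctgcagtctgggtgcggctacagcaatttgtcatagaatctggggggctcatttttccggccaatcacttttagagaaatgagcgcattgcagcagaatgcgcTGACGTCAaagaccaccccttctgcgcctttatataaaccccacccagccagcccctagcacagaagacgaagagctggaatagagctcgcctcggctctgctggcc
Meg3 at a second listed start, chr12:109545148-109545447, plus strand: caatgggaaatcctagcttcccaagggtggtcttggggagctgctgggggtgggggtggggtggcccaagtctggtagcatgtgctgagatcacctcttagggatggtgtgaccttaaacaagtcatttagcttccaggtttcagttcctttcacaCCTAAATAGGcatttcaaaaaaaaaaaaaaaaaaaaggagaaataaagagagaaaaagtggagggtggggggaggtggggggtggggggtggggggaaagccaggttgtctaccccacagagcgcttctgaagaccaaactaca

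A CArG box was present in 1 of the 17 windows, that of Meg3 at the downstream start, 94 bases before it. Over all 32851 RefSeq windows the share with a CArG box was 1.63%. The same search found 2 CArG boxes in the window of Srf itself. GGGGCCCC was present in the Peg3 window, 201 bases before the start, and in 1.08% of all windows. TGACGTCA was present in the Peg3 window, 178 bases before the start, in the upstream Meg3 window, 57 bases before the start, and in 1.79% of all windows. The windows of the 8 genes had a median GC content of 61.3%, against 52.7% over all windows, and a median of 16 CpG dinucleotides, against 7. A match describes letters in these windows and no more.

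Signals are given as log2 of the deposited intensity after each array was scaled to the same trimmed mean, with values under 1 set to 1, so 0 is the floor. Of the 32 probe sets, 23 passed the filter that left out the dimmest 40% of the array. The 9 others never exceeded 3.02 on an array. The background estimate, from probe sets of odorant, vomeronasal and taste receptors, was 3.05 in mutants and 2.86 in controls. Levels of different probe sets are not comparable with each other.

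No member probe set passed the test between mutant and control liver (limma, Benjamini-Hochberg over all 27022 kept probe sets, threshold 0.05). The smallest adjusted p was 0.288. Over all kept probe sets 0.074% passed, 0.0148% (4) being higher and 0.0592% (16) lower in mutants, a split of 3 and 32 on the deposited scaling. An unadjusted p under 0.05 was reached by 5 of 23 member probe sets, or 21.7%, against 13.8% of all kept probe sets. Of the 5, 4 were higher in mutants, where the share over all was 7.64%, and 1 was lower, where it was 6.17%. The 3 mutant arrays lay wholly above or below the 3 controls for 9 of 23, or 39.1%, against 23.2% of all. They lay above for 6, with 13.8% over all, and below for 3, with 9.34% over all. The median log2 difference was 0.04 for the members and 0.08 for all kept probe sets. The 9 belong to 5 genes, Peg3, Slc38a4, Mest, Meg3 and Gnas, and the 5 at an unadjusted p under 0.05 belong to Peg3, Slc38a4 and Mest.

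**Figure D1:**
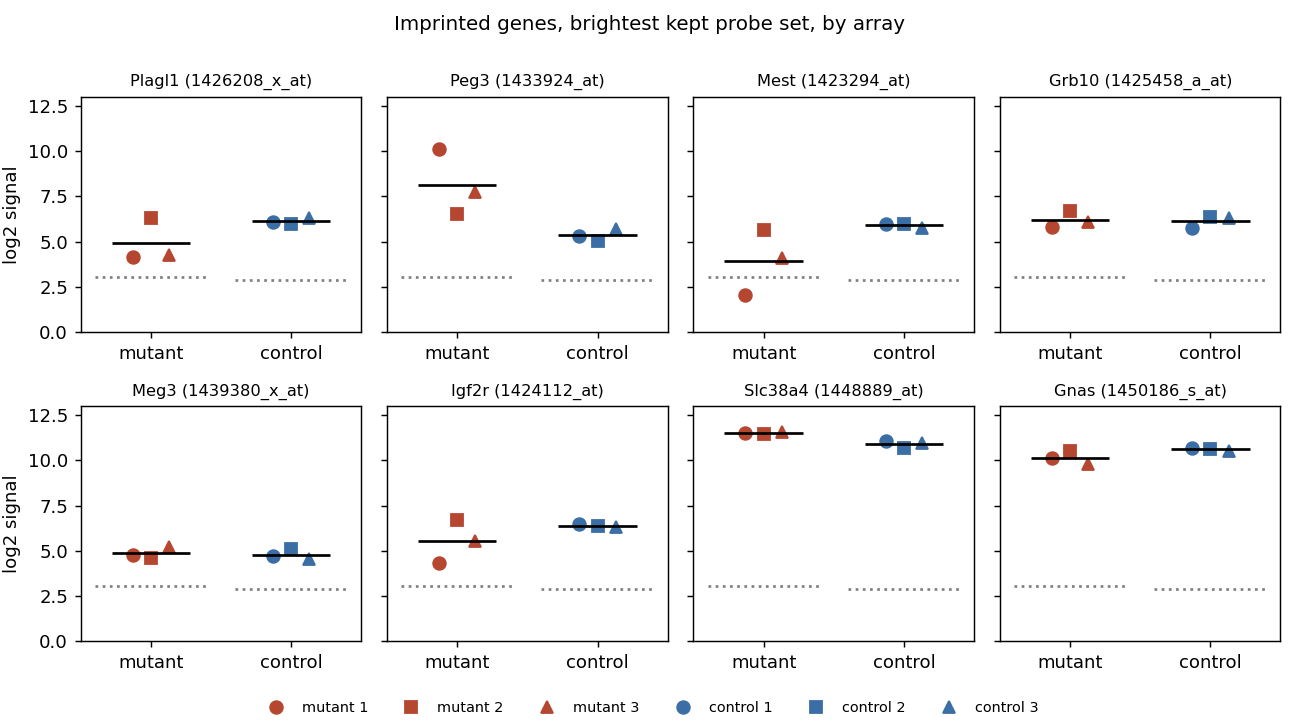
Log2 signal (y axis) of the brightest kept probe set of each imprinted gene on the 3 mutant arrays (red, left) and the 3 control arrays (blue, right). Bars are group means and dotted lines the background estimates of 3.05 in mutants and 2.86 in controls. Mutant 1 lies at 10.11 for Peg3 and at 2.04 for Mest, the farthest from the controls in both panels.

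Several facts of the arrays stand beside these values. The 3' to 5' signal ratio of the Pcx control probe sets, a measure of RNA integrity, was 17.3, 6.39 and 10.5 on mutant arrays 1 to 3, and 4.94, 4.44 and 7.03 on control arrays 1 to 3 (two-sided exact permutation p = 0.2, where 0.1 is the smallest possible). The Gapdh ratio was 1.01, 0.773 and 0.866 in mutants and 0.711, 0.679 and 0.756 in controls, with the groups apart (exact permutation p = 0.1). The integrity index, the mean log2 ratio over Actb, Gapdh and Pcx, was 2.18, 1.18 and 1.57 in mutants and 0.91, 0.78 and 1.22 in controls. Srf itself (1418256_at) gave 4.18, 5.24 and 2.54 on the arrays labelled mutant and 5.31, 5.14 and 5.11 on control arrays (log2 difference -1.20, SE 0.62, adjusted p = 0.398, limma). The second kept Srf probe set (1418255_s_at) gave 3.30, 0 and 1.99 on the arrays labelled mutant and 3.00, 3.69 and 3.37 on control arrays (log2 difference -1.59, adjusted p = 0.411, limma). Mutant 2 was at the control level on the first and at the floor on the second. The sources used here do not place these probe sets relative to the deleted part, so their values leave the labels unchecked. All 10 hepatocyte markers were kept. Albumin (Alb) was at 13.30, 12.87 and 13.01 in mutants and 12.82, 12.53 and 12.64 in controls, so the markers that define the labelled tissue were present.

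The paternally expressed members come first. Peg3, a zinc finger protein also known as Pw1, had the largest differences of the 8 genes. Its brightest probe set (1433924_at) gave 10.11, 6.55 and 7.76 on mutant arrays 1 to 3, and 5.31, 5.04 and 5.71 on control arrays. All 3 mutants lay above all 3 controls, and the mutants spread over more than 3 log2 units while the controls lay close together. The log2 difference was 2.79 (SE 0.78, 95% interval 0.98 to 4.59, adjusted p = 0.288, limma), 6.90-fold higher in mutants.

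The other kept Peg3 probe sets had the same order of groups. Probe set 1417355_at gave 9.44, 6.28 and 7.50 in mutants and 6.03, 4.14 and 6.07 in controls (log2 difference 2.32, adjusted p = 0.329, limma). Probe set 1417356_at gave 7.28, 4.67 and 4.44 in mutants and 4.01, 3.85 and 2.38 in controls (log2 difference 2.05, adjusted p = 0.343, limma). Mutant 1 was the highest array on each of the 3 probe sets. Without it the differences were 1.48 and 1.14, and with the integrity index, described above, in the fit they were 0.13 and 0.89. The remaining Peg3 probe sets, 1447731_at and 1447732_x_at, did not exceed 2.15 on any array and were not kept.

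Peg3 depended on which mutant arrays entered the fit. Without mutant 1 the difference of 1433924_at was 1.80 (adjusted p = 0.10, limma). Without mutant 2, the mutant nearest the controls here, it was 3.58 and passed the threshold (adjusted p = 0.0454, limma). In the fit without mutant 2, 579 of all kept probe sets passed, against 20 with all arrays. With the integrity index in the fit the difference of 1433924_at was 0.59 (SE 0.38, adjusted p = 0.930, limma). The order of the mutants in Peg3 on this probe set, 1 above 3 above 2, is also their order in the index. The index also ran higher in mutants, at 2.18, 1.18 and 1.57 against 0.914, 0.781 and 1.22 in controls. In every fit with the index, group and RNA integrity thus cannot be fully told apart. The part of integrity in the difference was not tested.

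Mest, an enzyme-like protein of the alpha/beta hydrolase fold, lay the other way. Its probe set (1423294_at) gave 2.04, 5.63 and 4.07 on mutant arrays 1 to 3, and 5.96, 5.96 and 5.76 on control arrays. The controls differed by little from each other, mutant 2 lay just under them, and mutant 1 lay below the background estimate. The log2 difference was -1.98 (SE 0.78, 95% interval -3.78 to -0.18, adjusted p = 0.348, limma), with an unadjusted p of 0.035. It was -1.04 without mutant 1 (adjusted p = 0.351), -2.84 without mutant 2 (adjusted p = 0.0576), and 0.09 with the integrity index in the fit (adjusted p = 0.986).

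Copg2, a coatomer subunit, overlaps the end of Mest in RefSeq and was in the list of further imprinted genes. Its brightest probe set (1448761_a_at) gave 4.67, 6.24 and 6.10 in mutants and 6.92, 6.63 and 6.79 in controls (log2 difference -1.11, SE 0.42, adjusted p = 0.340, limma). Mutant 1 was again the lowest array, and the groups did not overlap. The difference was -0.61 without mutant 1 and -0.21 with the integrity index in the fit. The place of these probe sets within the transcripts was not examined, so signal from overlapping transcripts cannot be told apart.

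Plagl1, the network regulator, had mutant arrays on both sides of the controls. Probe set 1426208_x_at gave 4.14, 6.33 and 4.24 on mutant arrays 1 to 3, and 6.09, 5.96 and 6.31 on control arrays. Mutants 1 and 3 lay well below the controls and mutant 2 slightly above them. Their mean was lower than that of controls by a log2 difference of -1.22 (SE 0.56, adjusted p = 0.375, limma). With the integrity index in the fit it was -0.16 (adjusted p = 0.981, limma). Without mutant 2, the highest mutant here, it was -1.93 and passed the threshold (adjusted p = 0.0278, limma). In the fit without mutant 2, 579 of all kept probe sets passed, against 20 with all arrays.

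The second kept Plagl1 probe set (1438588_at) lay near background, between 2.80 and 3.15 in mutants and between 2.53 and 3.31 in controls. Its log2 difference was 0.02 (95% interval -1.04 to 1.08, adjusted p = 0.990, limma). The third (1450533_a_at) was at the floor on every array but mutant 2, at 2.33, and was not kept. The low values of mutants 1 and 3 were thus seen on 1 of 3 probe sets, of a type (x_at) that can also detect related transcripts.

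Slc38a4, a sodium-coupled transporter of neutral amino acids abundant in hepatocytes, was bright, and tight after scaling. Probe set 1448889_at gave 11.51, 11.45 and 11.60 on mutant arrays and 11.05, 10.71 and 10.97 on control arrays. The mutants averaged 11.52 ± 0.07 and the controls 10.91 ± 0.18 (SD, n = 3 each). The log2 difference was 0.61 (SE 0.20, 95% interval 0.15 to 1.07, adjusted p = 0.314, limma), 1.53-fold higher in mutants, with an unadjusted p of 0.0151.

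Probe set 1428111_at of Slc38a4 gave 10.90, 11.13 and 11.42 in mutants and 10.89, 10.62 and 10.81 in controls (log2 difference 0.38, adjusted p = 0.434, limma). After scaling the groups were apart on both probe sets, on this one by a hair. With the integrity index in the fit the differences were 0.53 for 1448889_at and 0.50 for 1428111_at, and they differed little without mutant 1, at 0.61 and 0.50. On the deposited scaling they were 0.16 and -0.08, where the median of all kept probe sets was -0.37. Before scaling, the intensities of 1448889_at were 2015, 3011 and 2434 in mutants and 2175, 2167 and 2261 in controls, so the groups overlapped. They also overlapped on 1428111_at, with 1315, 2413 and 2148 in mutants and 1948, 2035 and 2016 in controls. The sign for 1428111_at, and the separation of the groups on both probe sets, thus depend on the scaling of the arrays.

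**Figure D2:**
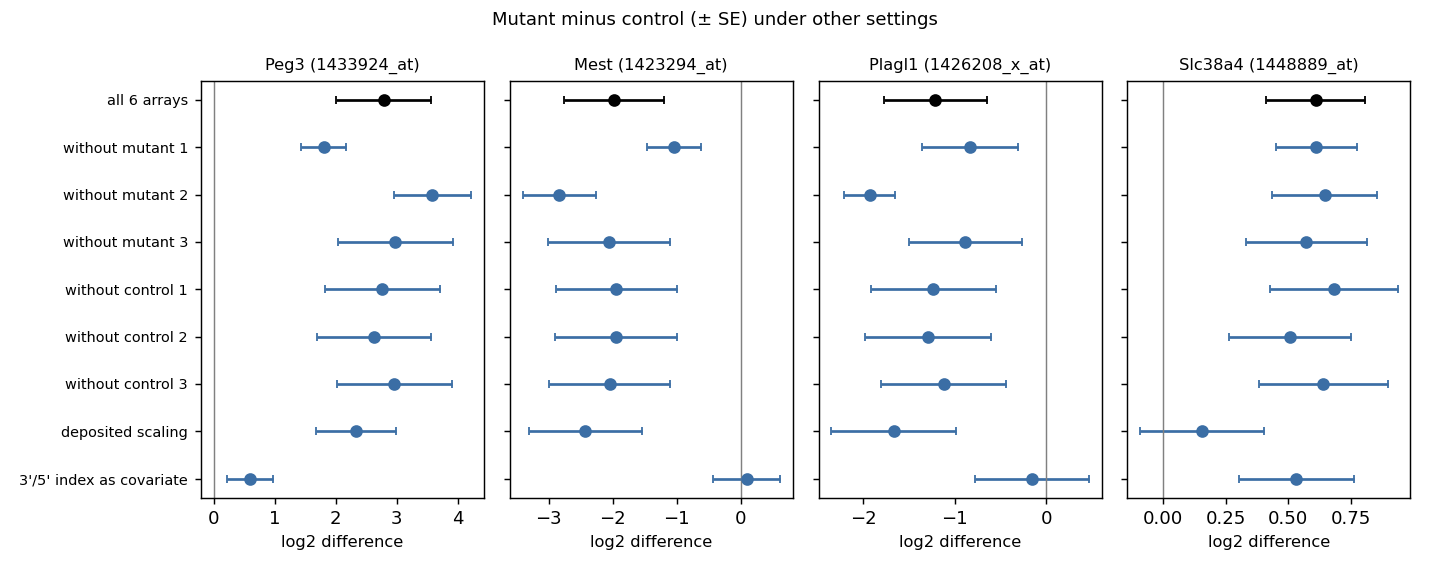
Log2 difference between mutant and control liver (x axis, points ± SE from limma) for 1 probe set each of Peg3, Mest, Plagl1 and Slc38a4, with all 6 arrays and under other settings (rows). Peg3 moves between 0.59 and 3.58 and Mest between -2.84 and 0.09, while Slc38a4 moves between 0.16 and 0.68 (each panel has its own x scale).

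Among the maternally expressed members, Grb10 encodes an adapter protein that binds the insulin and IGF1 receptors and dampens their signal. Its brightest probe set (1425458_a_at) gave 5.78, 6.69 and 6.06 on mutant arrays and 5.76, 6.35 and 6.29 on control arrays. The groups overlapped fully, with a log2 difference of 0.04 (95% interval -0.70 to 0.78, adjusted p = 0.962, limma) that was -0.41 on the deposited scaling and -0.19 with arrays centred on their median.

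The other Grb10 probe sets were dim. Probe set 1425457_a_at gave 1.04, 3.81 and 3.25 in mutants and 3.17, 4.20 and 2.83 in controls (log2 difference -0.70, SE 0.78, adjusted p = 0.666, limma). Probe set 1430164_a_at lay between 2.35 and 2.77 in mutants and between 2.32 and 2.97 in controls, below the background estimate in both group means. Mutant 1 was the lowest array on 1425457_a_at, and without it the difference was 0.13.

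Igf2r is the receptor that carries mannose 6-phosphate tagged enzymes to lysosomes and removes IGF2 from the cell surface. Its brighter probe set (1424112_at) gave 4.35, 6.72 and 5.55 on mutant arrays 1 to 3, and 6.48, 6.36 and 6.34 on control arrays. Mutants 1 and 3 lay below the controls and mutant 2 above them. The log2 difference was -0.85 (SE 0.53, 95% interval -2.09 to 0.38, adjusted p = 0.458, limma), and it was -0.26 without mutant 1 and 0.48 with the integrity index in the fit.

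The second Igf2r probe set (1424111_at) gave 4.75, 6.04 and 5.30 in mutants and 5.70, 5.69 and 5.54 in controls (log2 difference -0.28, adjusted p = 0.706, limma). It had the same order of the 3 mutants, and the difference was 0.02 without mutant 1. A further probe set is annotated to both Igf2r and the antisense RNA Airn and was not used.

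Meg3, a long noncoding RNA of the Dlk1 locus, had 8 kept probe sets that did not move together. Their log2 differences ran between -1.28 and 1.0, with 5 positive and 3 negative. Only 5 of the 8 had both group means above background. The brightest (1439380_x_at) gave 4.79, 4.59 and 5.21 on mutant arrays and 4.73, 5.09 and 4.52 on control arrays. The groups overlapped there, with a difference of 0.08 (95% interval -0.64 to 0.80, adjusted p = 0.913, limma) that turned to -0.37 on the deposited scaling.

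On Meg3 probe sets 1429257_at and 1452905_at the groups were apart in opposite directions. The first gave 1.10, 2.93 and 3.26 in mutants and 3.86, 3.55 and 3.70 in controls (log2 difference -1.28, adjusted p = 0.387, limma), with the mutant mean below background. The second gave 3.82, 4.11 and 3.49 in mutants and 2.80, 2.48 and 3.39 in controls (log2 difference 0.91, adjusted p = 0.381, limma). The other 5 kept probe sets overlapped between the groups, with differences between -0.89 and 1.0.

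Gnas encodes the alpha subunit of the stimulatory G protein, which couples receptors to cAMP production, and its locus also yields imprinted transcripts from other promoters. Its bright probe set (1450186_s_at, of the type that can detect related transcripts) gave 10.14, 10.53 and 9.80 on mutant arrays and 10.68, 10.64 and 10.53 on control arrays. Mutant 2 and control 3 were equal to the second decimal, with the mutant lower. The log2 difference was -0.46 (SE 0.24, 95% interval -1.01 to 0.09, adjusted p = 0.40, limma), 1.38-fold lower in mutants. It was -0.91 on the deposited scaling, -0.70 with arrays centred on the median, -0.28 without mutant 3 and -0.25 with the integrity index in the fit.

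Probe set 1453413_at of Gnas was kept but lay below the background estimate in both group means, at 1.89, 3.32 and 2.70 in mutants and 1.92, 1.98 and 3.23 in controls. The 3 other Gnas probe sets did not exceed 2.83 on any array. Of the 5, the data thus measured 1 above background.

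**Figure D3:**
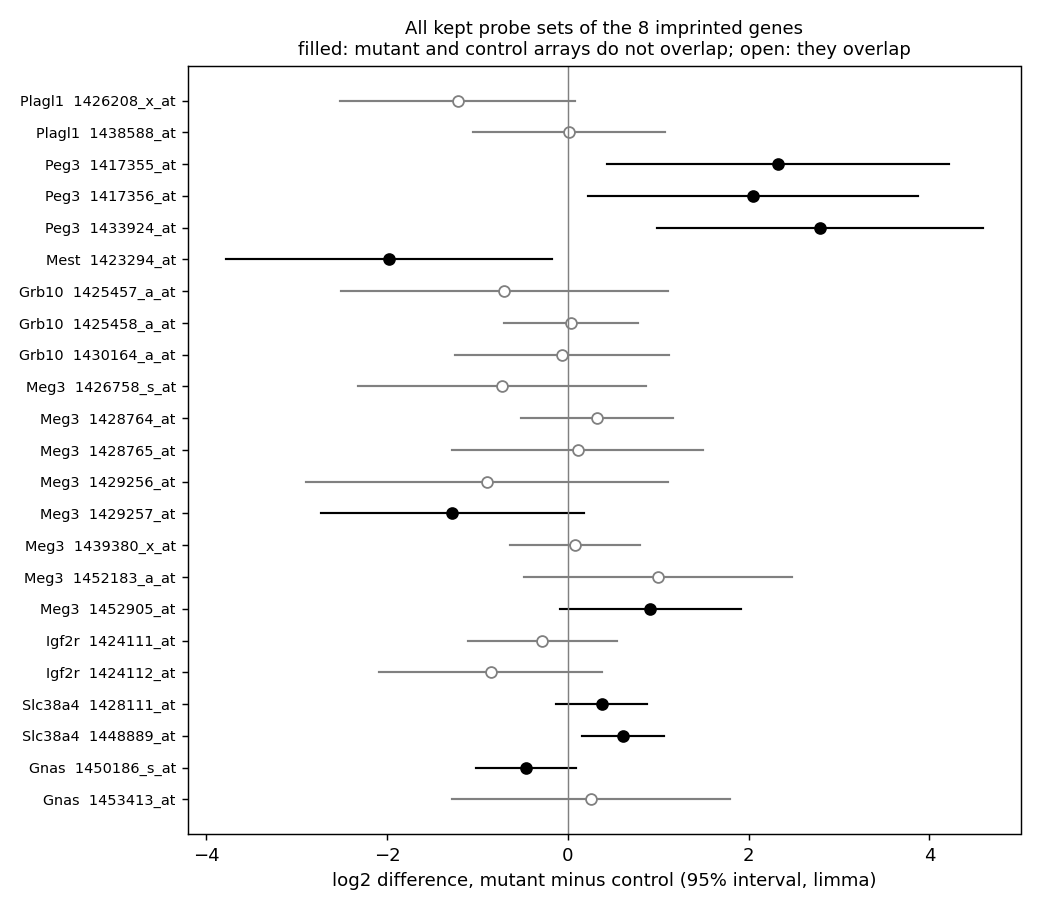
Log2 difference, mutant minus control (x axis), with its 95% interval from limma for the 23 kept probe sets of the 8 genes (rows). Filled points mark the 9 probe sets whose mutant and control arrays do not overlap. The 3 Peg3 probe sets lie between 2.05 and 2.79, Mest lies at -1.98, and those of Meg3 lie on both sides of 0.

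The genes with the profile nearest to the members that differed most were found by the root mean square distance over the 6 arrays, after subtracting each gene's control mean. Among 13136 genes, the nearest to Peg3 (1433924_at) was Ppp1r3g, a glycogen-targeting subunit of protein phosphatase 1, at a distance of 0.272 log2 units. Its log2 signals were 9.97, 7.0 and 7.57 in mutants and 5.51, 5.09 and 6.16 in controls. Next were Btg2, an antiproliferative gene, at 0.499 and 1500011B03Rik at 0.545. The nearest to Mest were Nit2, an omega-amidase, at 0.134, the glycosyltransferase Ugt3a2 at 0.150 and the guanine nucleotide exchange factor Dock6 at 0.175. Nit2 gave 6.60, 10.13 and 8.63 in mutants and 10.27, 10.27 and 10.34 in controls. Mutant 1 was the array farthest from the controls for each of these genes too, which follows from choosing them by the member's profile.

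**Figure D4:**
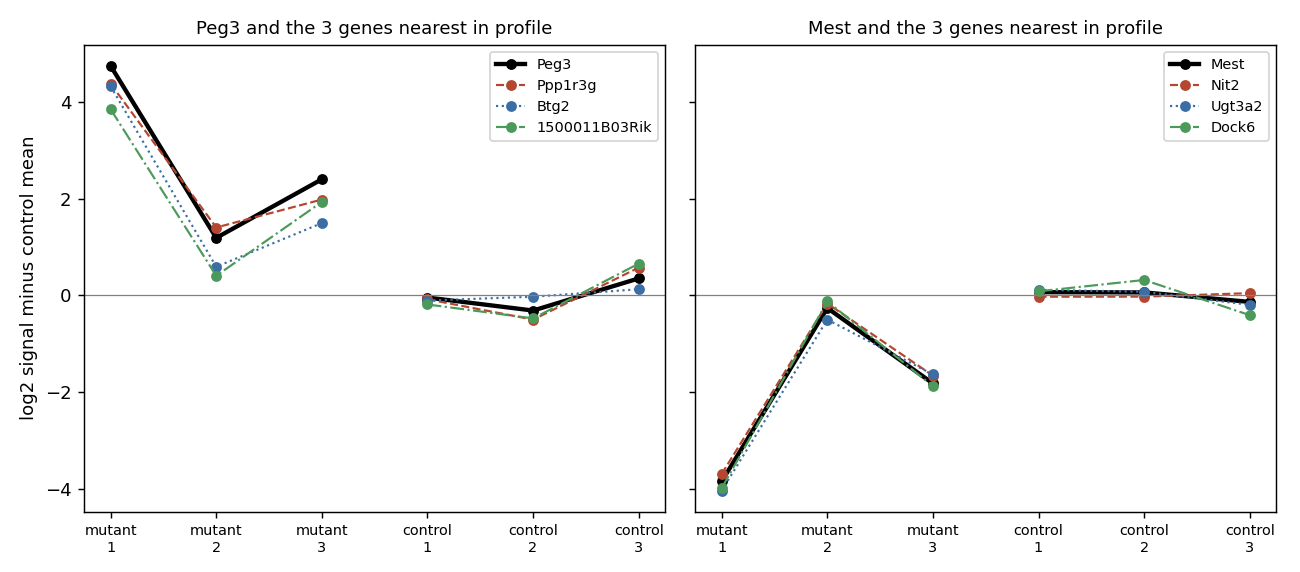
Log2 signal minus the control mean (y axis) on each array (x axis) for Peg3 (left panel) and Mest (right panel), thick black lines, with the 3 genes nearest in profile. Lines join arrays of 1 group for reading only. Distances are 0.272 to 0.545 for Peg3 and 0.134 to 0.175 for Mest.

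Of the 8 other genes of the imprinted network, 7 had a probe set with a single symbol and 6 were kept. None passed the test (limma), and 1 of 6 had an unadjusted p under 0.05, against 13.8% of all kept probe sets. The median log2 difference was 0.37, with 4 positive and 2 negative. Igf2, the fetal growth factor bound by Igf2r, gave 4.14, 3.88 and 4.26 on mutant arrays and 1.12, 2.66 and 3.53 on control arrays (1448152_at, log2 difference 1.66, SE 0.63, adjusted p = 0.340). The groups were apart, and the control mean of 2.43 lay below the background estimate, so no fold is given. Without control 1 the difference was 1.0 (adjusted p = 0.680, limma). A second Igf2 probe set (1415931_at) did not exceed 0.38 on any array.

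Gatm, an enzyme of creatine synthesis, was at the floor on mutant 1 and at 5.18 and 3.70 on mutants 2 and 3, against 5.28, 5.29 and 5.08 in controls (log2 difference -2.26, SE 1.13, adjusted p = 0.391, limma). Its mutant mean lay below the background estimate, and the difference was -0.78 without mutant 1 and 0.77 with the integrity index in the fit. The cell cycle inhibitor Cdkn1c had a difference of 0.49 (95% interval -0.53 to 1.51) and Ndn, a neuronal growth suppressor, of 0.41 (95% interval -0.43 to 1.25). The remaining network genes Sgce and Dcn, a matrix proteoglycan, had 0.32 and -0.05, with Dcn at 9.29, 10.48 and 10.03 in mutants and 9.95, 9.92 and 10.08 in controls. Dlk1 had no kept probe set, with at most 3.11 on mutant 2. H19 was not analysed here.

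Of 52 further imprinted genes, 26 were kept, 15 with a positive and 11 with a negative difference (median 0.04). None passed the test (limma), and 5 of 26 had an unadjusted p under 0.05, against 13.8% of all kept probe sets. Kcnq1ot1, the paternally expressed antisense RNA of the Kcnq1 domain, gave 5.0, 3.96 and 4.80 on mutant arrays and 1.94, 2.12 and 3.37 on control arrays (1458161_at, log2 difference 2.11, SE 0.52, adjusted p = 0.249). The groups were apart, with the control mean below background, and its 2 other kept probe sets had log2 differences of 2.64 and 2.11 with overlapping groups. Impact, a translational regulator, gave 7.01, 5.23 and 5.36 in mutants and 4.70, 4.55 and 4.13 in controls (log2 difference 1.41, adjusted p = 0.326, limma). It was 0.84 without mutant 1 and 0.48 with the integrity index in the fit, where that of Kcnq1ot1 was 1.2. Gab1, an adapter of receptor tyrosine kinases, gave 6.80, 6.97 and 6.87 in mutants and 6.37, 5.92 and 6.55 in controls (log2 difference 0.60, adjusted p = 0.360, limma), with 0.15 on the deposited scaling.

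**Figure D5:**
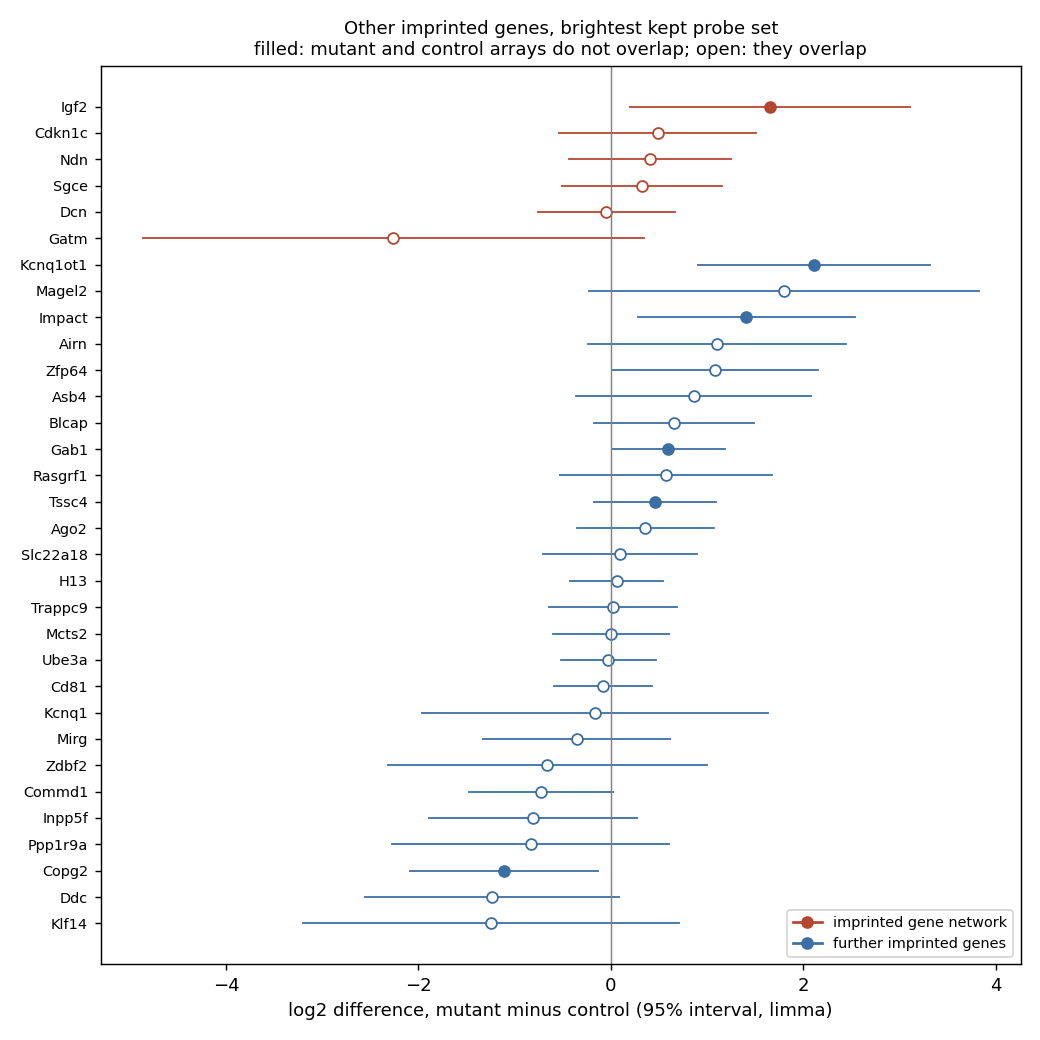
Log2 difference, mutant minus control (x axis), with its 95% interval from limma for 6 other genes of the imprinted network (red) and 26 further imprinted genes (blue), 1 row per gene. Filled points mark genes whose groups do not overlap. Kcnq1ot1 has the largest positive value at 2.11 and Gatm the largest negative value at -2.26, with no gene past the threshold.

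Partners of the members were followed as a list of 33 genes, with 32 kept. They include ligands, receptors, adapters, related transporters, cAMP enzymes and factors that maintain imprints. None passed the test (limma), and the median difference was 0.03. An unadjusted p under 0.05 was reached by 6 of 32, against 13.8% of all kept probe sets. Among receptors, Igf1r (1452982_at) gave 5.64, 5.36 and 5.19 in mutants and 3.84, 3.79 and 5.03 in controls (log2 difference 1.18, SE 0.40, adjusted p = 0.321), and Insr (1434446_at) had 0.45 (adjusted p = 0.448). The 4 other kept Igf1r probe sets had log2 differences between -0.17 and 1.62, and only 1426565_at, at 0.29 with overlapping groups, had both group means above background. The 2 other kept Insr probe sets had -0.53 and 0.53, each with 1 group mean below background. Among adapters, Irs2 gave 6.77, 4.68 and 4.44 in mutants and 3.81, 3.50 and 3.40 in controls (log2 difference 1.73, adjusted p = 0.326, limma). The differences with the integrity index in the fit were 0.51 for Irs2 and 0.66 for Igf1r, and that of Irs2 was 0.99 without mutant 1.

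The mutant arrays lay below the controls on all 4 kept probe sets of the ligand Igf1, with 8.63, 8.93 and 7.35 on mutant arrays and 11.53, 11.39 and 10.65 on control arrays for 1452014_a_at (log2 difference -2.89, adjusted p = 0.0748, limma). It passed with log2 of signal plus 32 (adjusted p = 0.0350), with the replicate number as a block (0.0413), and without mutant 1 or mutant 2 (0.0338 and 0.0225, limma). In those settings, in that order, 107, 22, 131 and 579 of all kept probe sets passed, against 20 in the report's settings. Uhrf1, which directs the maintenance methyltransferase Dnmt1 to replicated DNA, gave 3.06, 2.44 and 2.32 in mutants and 4.12, 4.65 and 4.01 in controls (log2 difference -1.65, SE 0.42, adjusted p = 0.249, limma). Its groups were apart, with the mutant mean below background.

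Markers of other liver cells also differed between the arrays. Of 12 stellate cell and fibroblast markers, all were kept, 10 were lower in mutants and none passed the test (limma). Over all 27022 kept probe sets, 12178 had a negative and 14844 a positive difference. An unadjusted p under 0.05 was reached by 4 markers that were lower, where the share over all kept probe sets was 6.17%. It was reached by 1 that was higher, where that share was 7.64%. The higher one was Pdgfra, a growth factor receptor of mesenchymal cells, with 5.54, 6.66 and 6.23 in mutants and 4.62, 4.88 and 5.08 in controls (log2 difference 1.29, adjusted p = 0.274, limma). Col3a1, a fibrillar collagen, gave 3.57, 8.61 and 6.38 in mutants and 9.77, 9.76 and 9.69 in controls. Their summed scaled signal was 306, 1703 and 642 on mutant arrays 1 to 3, and between 1991 and 2120 on control arrays. For 10 endothelial markers the sum was 448, 1547 and 797 in mutants and between 778 and 1163 in controls. Of these markers, 5 were higher and 5 lower in mutants. For 9 macrophage markers the sum was 989, 1670 and 1096 in mutants and between 1526 and 2146 in controls. Of these, 7 were lower in mutants and 2 higher, Marco and Cd68. Marco gave 7.57, 6.14 and 5.62 on mutant arrays 1 to 3 and 5.86, 5.81 and 5.58 on control arrays, so mutant 1 was its highest array. The erythroid sum, over 2 kept markers, was 17.8, 363 and 34.5 in mutants and between 235 and 485 in controls, and that of 2 pancreas markers was 60.7, 172 and 117 in mutants and between 276 and 493 in controls. Of the pancreas markers, Cela1 was lower in mutants (log2 difference -1.96) and Prss2 higher (0.77). Prss2 gave 3.81, 3.12 and 3.99 on mutant arrays 1 to 3, with mutant 2 its lowest mutant. No kept marker of these 5 lists was at the floor on any array. In these 5 sums mutant 2 was the highest mutant, as it was for Mest, Plagl1 1426208_x_at and Igf2r, and mutant 1 the lowest. After scaling, bile duct markers differed from this, with all 4 kept genes higher in mutants. Their sums were 39.3, 59.3 and 62.7 on mutant arrays 1 to 3, against 33.9 to 36.7 on control arrays, with mutant 1 again the lowest mutant. None of the 4 had an unadjusted p under 0.05 (limma). The control means of Sox9 and Krt7, 2.19 and 2.58, lay below the background estimate. Krt7 and Epcam overlapped between the groups. After scaling, the sum of the 10 hepatocyte markers had the order opposite to that of the 5 sums. It was 85481, 64661 and 72025 in mutants 1 to 3, against 54697 to 62799 in controls. Of the 10, 9 were higher in mutants and 1 lower, Apob, at 10.85, 12.22 and 12.25 in mutants 1 to 3. Scaling multiplied mutant arrays 1 to 3 by 1.45, 0.928 and 1.27, and control arrays by 0.977, 0.771 and 0.888. The order of mutants in the hepatocyte and bile duct sums can depend on these factors. Sums of deposited signal were not compared. The part of these markers in the members' values was not tested.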

How the data were processed

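Liver RNA of 3 mutant and 3 control mice was hybridised to 1 array each, and samples were grouped by their titles. The deposited table holds 1 linear intensity per probe set and array. Per the submitters' processing notes it came from GCOS, with algorithm and scaling not given in the sources used here. Trimmed means (2% from each end) ran between 36.8 and 57.6 on mutant arrays and between 54.7 and 69.3 on control arrays. They differed by more than 5%, so arrays were scaled to their mean, values under 1 were set to 1 and log2 was taken. The dimmest 40% of probe sets were left out and 27022 kept. Symbols were updated by Entrez identifier through RefSeq for 34741 of 34945 probe sets with 1 symbol. A gene outside the members is represented by its brightest kept probe set.

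Mutant and control arrays were set against each other in limma 3.58.1 under R 4.3.3 (lmFit, then eBayes with a variance trend). Tests were two-sided, and p-values were adjusted by Benjamini-Hochberg over the kept probe sets. The step was tested on simulated data. Background was the 95th percentile of group means over 83 chemosensory receptor probe sets. With 3 arrays per group, their number limits the precision.

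The members and gene lists were chosen with earlier results of these data known, so lists are described and not tested. Named genes are all members, up to 4 of each other imprinted or partner list with the smallest adjusted p, the growth factors and receptors Igf2, H19, Cdkn1c, Dlk1, Igf1, Igf1r and Insr, Srf, and the 3 genes nearest in profile to the members that differed most. Sgce, Dcn, Col3a1, Pdgfra and Alb were named after their values were seen. The muscle and adipose marker list had 1 gene kept, and no gene of any marker list passed the threshold. The alternatives were 3 other scalings, an added constant of 32, other filters, no variance trend, the integrity index as a term in the fit, the replicate number as a block and each array left out.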

Additional observations from a re-analysis of the deposited data

How the results depend on the processing

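The number of probe sets past the threshold was 20 with the settings of the report. It was 35 on the deposited scaling, 107 with log2 of signal plus 32, 11 with the lower 60% left out, 9 without the variance trend, 5 with the integrity index (log2 of 3' over 5' signal) in the fit and 0 with dim probe sets left in (limma, 4707 at an unadjusted p under 0.05). Leaving out 1 array gave between 2 and 579, the highest without mutant 2, and 131 without mutant 1. Member probe sets past the threshold numbered between 0 and 2 with 1 array left out, the 2 being Plagl1 and Peg3 without mutant 2. They numbered 0 in every other setting, with between 1 (integrity index in the fit) and 7 (arrays centred on the median) at an unadjusted p under 0.05. Over all 27022 kept probe sets, 1396 and 3895 reached that p in those settings. The higher share of calls was 20% in the report's settings and 8.57% on the deposited scaling.

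The median over kept member probe sets, 0.04, was -0.41 on the deposited scaling, -0.15 after quantile normalization, -0.19 with arrays centred on the median, 0.20 with the lower 60% left out, and -0.21 over the brightest probe set of each gene. Of the 23 kept member probe sets, 10 had the same sign in all settings that tested them, including the 3 of Peg3, though 1 of these, 1417355_at, was at 0.13 (adjusted p = 0.981, limma) with the integrity index in the fit and 2.32 without it. Signs turned on the deposited scaling for Grb10 1425458_a_at (-0.41), Slc38a4 1428111_at (-0.076), Meg3 1428764_at, 1428765_at and 1439380_x_at (-0.13, -0.34 and -0.37), Plagl1 1438588_at (-0.44), Gnas 1453413_at (-0.20), Insr (-0.0055), Sgce (-0.13) and Ndn (-0.043). With the integrity index in the fit they turned for Mest (0.095), Igf2r 1424111_at and 1424112_at (0.47 and 0.48), Grb10 1425457_a_at (1.22), Meg3 1428765_at (-0.76), Dcn (0.58) and Gatm (0.77). After quantile normalization they turned for Meg3 1428765_at (-0.15), Plagl1 1438588_at (-0.21) and Gnas 1453413_at (-0.0027). With arrays centred on the median they turned for Grb10 1425458_a_at (-0.19), Meg3 1428765_at and 1439380_x_at (-0.13 and -0.15) and Plagl1 1438588_at (-0.22), and with log2 of signal plus 32 for Plagl1 1438588_at (-0.0016). The cause was not tested.

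With 1 array left out, signs turned within ranges of -0.62 to 0.024 for Igf2r 1424111_at, -1.26 to 0.13, -0.22 to 0.24 and -0.25 to 0.072 for Grb10 1425457_a_at, 1425458_a_at and 1430164_a_at, and -1.17 to 0.045, -0.22 to 0.57 and -0.091 to 0.24 for Meg3 1426758_s_at, 1428765_at and 1439380_x_at. The ranges were -0.22 to 0.17 for Plagl1 1438588_at, -0.087 to 0.68 for Gnas 1453413_at and -0.32 to 0.28 for Dcn. Replicate numbers did not pair the arrays, with correlations of same-numbered deviations of -0.04, 0.02 and 0.04 over kept probe sets. With the replicate number as a block 22 probe sets passed, 0 of them members (smallest member adjusted p = 0.176, limma). In that fit 5 of 23 member probe sets had an unadjusted p under 0.05, against 3505 of all 27022 kept probe sets. Igf1 passed with this block (adjusted p = 0.0413, limma). Signal near background limits what can be said of Meg3 and the dim probe sets of Grb10 and Gnas, and which transcripts of the Gnas locus each probe set reads was not examined.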
